A study of Mus musculus with 2 samples.

Results

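Some mouse miRNAs are made from more than 1 place in the genome, and the copies carry the same name followed by a hyphen and a copy number, such as Mir16-1 and Mir16-2. The loci described here were the miRNA genes of the GENCODE M21 annotation whose symbol starts with Mir and ends in a hyphen and digits, without the long Mir297, Mir466, Mir467 and Mir669 repeat families. The rule reads names alone and found 97 of the 2202 miRNA genes in the tables, in 47 families. 40 families had 2 copies, 5 had 3 copies and 2 had a single numbered copy (Mir3084-1 and Mir344-2). They were measured by microRNA sequencing of total RNA, with a size selection under 30, in adrenal gland of female B6CASTF1/J mice, first-generation hybrids of the C57BL/6J and CAST/EiJ strains, on postnatal day 4. The series held 1 group of 2 libraries, replicates 1 and 2, with no treatment, no engineered allele and no second condition. Whether 2 animals were used is not settled by the labels. They give biological replicate numbers 1 and 2 and name 2 females, but under a single donor code. P-values and spreads therefore speak of these samples alone and may be technical.

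A miRNA gene is transcribed as a long primary RNA from which Drosha cuts a hairpin and Dicer cuts a duplex of a 5p and a 3p arm. One arm is usually the guide that an Argonaute protein uses to find target mRNAs through its seed (bases 2 to 8 of the mature miRNA), and the other, the passenger, is mostly degraded. Copies of a duplicated miRNA gene often keep an identical guide while the passenger arm, the loop and the flanks drift apart. The adrenal gland joins a cortex that makes steroid hormones and a medulla that makes catecholamines. The values here are locus-specific reads: reads that the authors' alignment placed at a single position, on the annotated strand of the locus. The tables list reads that map to several positions in a separate row, 25.9% of all reads in replicate 1 and 27.8% in replicate 2, and count them for no gene. A low value therefore says that few reads could be placed at that copy, not that its mature miRNA was scarce.

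The sequences of the families on which the results turn are shown first, because they set which reads can be placed at a copy. In the following mature arms the capitals mark the seed. The 5p arm of let-7f and of miR-16 and the 3p arm of miR-92a occur in 2 annotated hairpins each, while the opposite arm is particular to 1 copy. Mature sequences are those of RefSeq, matched to the hairpins of GENCODE M21 (GRCm38.p6).
let-7f-5p (Mirlet7f-1 and Mirlet7f-2): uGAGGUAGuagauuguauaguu
let-7f-1-3p (Mirlet7f-1): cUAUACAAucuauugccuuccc
let-7f-2-3p (Mirlet7f-2): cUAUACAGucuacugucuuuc
miR-16-5p (Mir16-1 and Mir16-2): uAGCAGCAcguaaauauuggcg
miR-16-1-3p (Mir16-1): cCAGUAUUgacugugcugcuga
miR-16-2-3p (Mir16-2): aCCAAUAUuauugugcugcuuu
miR-92a-3p (Mir92-1 and Mir92-2): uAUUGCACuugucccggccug
miR-92a-1-5p (Mir92-1): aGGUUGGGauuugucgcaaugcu
miR-92a-2-5p (Mir92-2): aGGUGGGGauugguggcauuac
miR-26a-5p (Mir26a-1 and Mir26a-2): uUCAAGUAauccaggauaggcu
miR-26a-1-3p (Mir26a-1): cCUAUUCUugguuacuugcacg
miR-26a-2-3p (Mir26a-2): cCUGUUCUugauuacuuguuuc
let-7c-5p (Mirlet7c-1 and Mirlet7c-2): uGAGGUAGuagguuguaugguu
let-7a-1-3p and let-7c-2-3p (Mirlet7a-1 and Mirlet7c-2): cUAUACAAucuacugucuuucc
miR-9-5p (all copies of Mir9): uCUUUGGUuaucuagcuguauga
miR-9-3p (all copies of Mir9): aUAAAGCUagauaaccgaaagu

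The seed of let-7f-5p is also that of let-7a-5p and let-7c-5p, while the 3p seeds of Mirlet7f-1 and Mirlet7f-2 differ. The 3p arm of Mirlet7a-1 is letter for letter that of Mirlet7c-2, so neither of these loci holds a mature arm of its own. For a shared 5p arm, copies can still be told apart by a read that runs past the arm's end, if its further bases come from the hairpin. Whether they did was not tested. The stretches that follow give 6 bases before and 8 bases after the shared 5p arm in GENCODE's transcript of each copy, with capitals where the copies differ. In let-7f the first base after the arm already differs, whereas in miR-16, let-7c and let-7a the first base is the same, and in miR-26a and miR-9 the first 3 are.
Mirlet7f-1: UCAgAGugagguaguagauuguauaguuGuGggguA
Mirlet7f-2: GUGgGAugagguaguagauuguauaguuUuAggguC
Mir16-1: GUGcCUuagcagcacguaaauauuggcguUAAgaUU
Mir16-2: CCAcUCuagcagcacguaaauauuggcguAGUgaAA
Mir26a-1: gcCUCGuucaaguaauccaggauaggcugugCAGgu
Mir26a-2: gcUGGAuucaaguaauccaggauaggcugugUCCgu
Mirlet7c-1: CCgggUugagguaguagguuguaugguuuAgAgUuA
Mirlet7c-2: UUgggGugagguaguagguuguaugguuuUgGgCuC
Mir9-1: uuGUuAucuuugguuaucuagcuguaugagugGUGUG
Mir9-2: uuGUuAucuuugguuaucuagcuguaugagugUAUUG
Mir9-3: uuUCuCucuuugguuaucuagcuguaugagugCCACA

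Each library held between 4506482 and 4960537 reads assigned to miRNA genes, and 3 reads, taken as the upper limit that a count of 0 allows, correspond to 0.605 and 0.666 CPM, which is a gene's reads scaled to a common library total. Of the marker lists for the cell types an adrenal dissection can hold, the summed level ran from 325 to 171026 CPM in replicate 1, from 132 to 74690 CPM in the other library, and no listed gene was at 0 in both libraries. The neuroendocrine list (Mir375 and Mir7b) summed to 39741 and 45238 CPM. By ratio, the lists that differed most between the libraries were the epithelial one, at 4224 CPM against 192 CPM in the order of the replicates, and the striated muscle one, at 1253 against 8686 CPM. In the muscle list Mir206 alone had 1239 and 8627 CPM, and Mir1b went the other way, with 3.63 and 0.888 CPM. In CPM the endothelial list differed most, at 171026 against 74690. Its gene Mir126a had 156832 and 54709 CPM, while Mir139 rose from 14194 to 19981 CPM. The part of these lists in the differences between the libraries that are described further on was not tested.

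The numbered loci took 63136 reads in replicate 1 and 44690 in replicate 2. That was 1.27% of miRNA reads (95% Wilson interval 1.26% to 1.28%) and 0.992% (0.983% to 1.00%), or 1.13% ± 0.199 (SD, n = 2), for loci that make up 4.41% of the annotated genes. These intervals cover counting error only, since reads copied from 1 molecule by PCR were not told apart. Multimapping reads of any origin outnumbered the reads of the numbered loci 48.0 to 1 in replicate 1 and 70.1 to 1 in replicate 2. Detection was set at 10 or more reads in each library, which 47 of the 97 numbered loci met (48.5%), against 330 of the 2105 other miRNA genes (15.7%). Another 14 loci had some reads and 36 had 0 reads in both libraries. The other miRNA genes include ones with Gm symbols, which the name rule leaves out, so the detection shares are not of like sets. Detected numbered loci were less deep than detected miRNA genes in general, with a median of 59.4 CPM against 149.9 CPM over all 377 detected genes.

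Reads were concentrated in a few loci. Mirlet7f-2, 1 of the 2 genes of let-7f, a miRNA of the family that promotes differentiation and represses growth-promoting mRNAs, had 20872 reads in replicate 1 and 16127 in replicate 2. It alone held 33.1% and 36.1% of the reads of all numbered loci, and it ranked 42nd among all miRNA genes by mean CPM. The 5 loci with most reads held 64.4% and 62.5%, and the first 10 held 80.4% and 77.4%. After Mirlet7f-2 came Mir92-1 (rank 80), Mir16-1 (rank 91), Mir125b-1 (rank 119) and Mirlet7c-2 (rank 126).

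**Figure D1:**
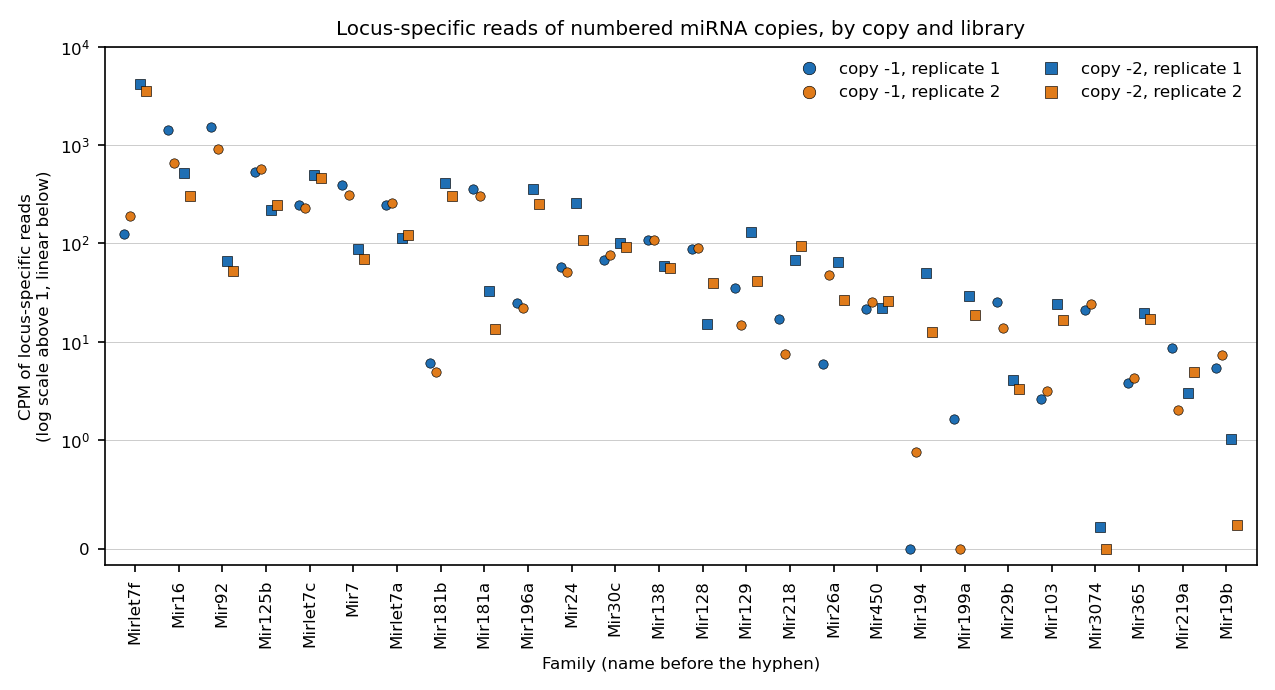
Level of each copy (CPM of locus-specific reads, log scale above 1 and linear below) for the 26 families with a detected copy, ordered by the family's mean; circles are copy -1, squares copy -2, blue replicate 1 and orange replicate 2. Circles and squares of Mirlet7f, Mir92 and Mir181b lie far apart in both libraries, and those of Mir450 and Mir30c lie close together. In Mir26a and, at fewer reads, in Mir219a the order of the copies turns between the libraries.

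Within the let-7 family, whose guides share a seed, the 6 numbered loci held 26965 and 21837 reads. Mirlet7f-1 had 620 reads in replicate 1 and 859 in replicate 2, far under Mirlet7f-2. Mirlet7f-2 lies in an intron of Huwe1, a ubiquitin ligase gene, at chromosome X, 151912346 to 151912428 on the plus strand, next to Mir98, which had 34479 and 34319 reads. Mirlet7f-1 lies on chromosome 13, 48537829 to 48537917 on the minus strand, in an exon of the lincRNA 6720427I07Rik and 262 bases from Mirlet7a-1.

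Mirlet7a-1 had 1225 and 1165 reads and Mirlet7a-2 had 563 and 551. For let-7c the order was the reverse by copy number, with 1225 and 1032 reads at Mirlet7c-1 and 2460 and 2103 at Mirlet7c-2. The ranges of these copies did not overlap within either family. Although the arms of Mirlet7a-1 and Mirlet7c-2 are all present in another hairpin, these 2 loci each led their family. The 6 let-7 genes with a single locus (Mirlet7b, Mirlet7d, Mirlet7e, Mirlet7g, Mirlet7i and Mir98) had 886419 and 914024 reads, 32.9 and 41.9 for each read at a numbered let-7 locus. Reads lying within an arm that copies share could not be placed and are missing from the numbered loci. Comparisons with single-locus relatives, here and below, therefore do not compare amounts of mature miRNA.

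The miR-15/16 and miR-17/92 groups act on cell cycle and survival genes, the first known for restraining proliferation and the second as an oncogenic cluster. Mir16-1 had 7049 reads in replicate 1 and 2973 in replicate 2, and Mir16-2 had 2563 and 1363. Each sits beside a miR-15 gene: Mir16-1 in an exon of Dleu2, 55 bases from Mir15a (24867 and 3999 reads), Mir16-2 in an intron of Smc4, a condensin gene, 67 bases from Mir15b (9634 and 3054 reads). All 4 genes were lower in replicate 2.

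Mir92-1, in an exon of Mir17hg at chromosome 14, 115044427 to 115044506 on the plus strand, had 7661 and 4148 reads. Its copy on chromosome X, Mir92-2, had 331 and 235. For miR-92, unlike let-7, the numbered loci had more locus-specific reads than the 4 single-locus relatives (Mir92b, Mir25, Mir32 and Mir363), with 7992 and 4383 against 3994 and 1718. Mir19b-1, 36 bases from Mir92-1, had 27 and 33 reads, and Mir19b-2 beside Mir92-2 had 5 and 1. The arm miR-19b-3p occurs in both of these hairpins, so reads within it are missing from their counts. The other genes of the Mir17hg cluster, Mir17, Mir18 and Mir20a, had between 3198 and 19330 reads, and Mir19a had 37 and 21.

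Mir7-1, in an intron of Hnrnpk, had 1930 and 1393 reads and Mir7-2 had 435 and 315. miR-7 is enriched in neuroendocrine cells, and Mir7b, its single-locus relative, had 16675 and 18987 reads. Mir125b-1 had 2636 and 2580 reads and Mir125b-2 had 1076 and 1098. These libraries differed by little at both copies, while Mir125a, the relative of miR-125b, had 56727 and 23091 reads.

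Among miRNAs best known from neurons, Mir138-1 had 537 and 487 reads against 289 and 254 at Mir138-2. Mir128-1, in an intron of R3hdm1, had 439 and 404 reads, and Mir128-2, in an intron of Arpp21, had 75 and 179. Mir129-1 had 176 and 67 reads and Mir129-2 had 643 and 186. The copies of miR-218 lie in introns of Slit2 and Slit3, genes for secreted guidance proteins: Mir218-1 had 85 and 34 reads and Mir218-2 had 334 and 423.

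miR-9 and miR-124 are abundant in brain, and their numbered loci had almost no locus-specific reads. Mir9-1 had 6 and 4 reads, Mir9-3 had 6 and 2, and Mir9-2 had 0 in both libraries. Of the Mir124a copies only Mir124a-1 had a read, 1 in replicate 2. Both arms of miR-9 occur in all 3 of its hairpins, as shown among the sequences, so its reads can be placed only through the flanks. Reads at Mir135a-1 (8 and 2) and Mir135a-2 (3 and 2) were as few, although each of those copies has a 3p arm of its own.

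The muscle miRNAs miR-1a and miR-133a were as low at their numbered loci. A single read per library fell on Mir1a-1, and Mir1a-2 had 5 and 2. Mir133a-1 had 0 and 3 reads and Mir133a-2 had 0 and 1. Mir206, a relative of miR-1 with a single locus that belongs to the striated muscle list, had 6146 reads in replicate 1 and 38876 in replicate 2. No direction between the libraries was read from the numbered muscle loci, all of which were at or near the limit of 3 reads.

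The miR-181 family, best known from lymphocytes and vessels, is encoded by 2 clusters that each hold a miR-181a and a miR-181b copy, and the leading copy was not in the same cluster for both. On chromosome 1, Mir181a-1 had 1775 and 1382 reads and Mir181b-1, 98 bases away, had 30 and 22. On chromosome 2, Mir181a-2 had 162 and 60 reads and Mir181b-2, 1020 bases away, had 2066 and 1381. The guides of the 4 loci share 1 seed. Single-locus relatives Mir181c and Mir181d together had 12604 and 8731 reads.

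The miR-196a loci lie among Hox genes, which set position along the body axis. Mir196a-1 had 122 and 99 reads, and Mir196a-2, in an intron of Hoxc5 at chromosome 15, had 1772 and 1125. Their relative Mir196b had 9303 and 3361 reads. miR-450 is made from a tandem pair 55 bases apart on chromosome X, and these copies were nearly equal: Mir450-1 had 21.6 and 25.3 CPM and Mir450-2 had 22.0 and 26.0 CPM.

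Remaining families at 100 or more reads in both libraries were miR-24, miR-30c, miR-26a and Mir3074. Mir24-1 had 285 and 232 reads and Mir24-2 had 1277 and 489. Each overlaps a copy of Mir3074 on the opposite strand: Mir3074-1, antisense to Mir24-1, had 104 and 110 reads, and Mir3074-2, antisense to Mir24-2, had 1 and 0. The columns of the tables are by strand, and reads of such a pair were kept apart by it. Mir30c-1 had 339 and 343 reads and Mir30c-2 had 495 and 417.

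For miR-26a, a miRNA with growth-restraining targets whose genes lie within genes of small C-terminal domain phosphatases, the copies exchanged places. Mir26a-1, in an intron of Ctdspl at chromosome 9, 119031796 to 119031885 on the plus strand, had 29 reads in replicate 1 and 214 in replicate 2. Mir26a-2, at chromosome 10, 126995530 to 126995613 on the plus strand within an annotated exon of Ctdsp2, had 320 reads in replicate 1 and 119 in replicate 2. Summed over the copies the libraries were alike, with 349 and 333 reads, or 72.1 CPM ± 2.50 (SD, n = 2). Mir26b, their single-locus relative, had 114404 and 128916 reads, 328 and 387 for each read that could be placed at a numbered miR-26a locus.

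Detected families with fewer reads were miR-194, miR-199a, miR-29b, miR-103, miR-365, miR-219a and miR-19b. Mir194-2 had 250 and 57 reads while Mir194-1 had 0 and 4. Mir199a-2, inside the Dnm3os transcript, had 146 and 85, and Mir199a-1 had 8 and 0. In the miR-29 family, which represses collagen genes, Mir29b-1 had 127 and 62 reads and Mir29b-2 had 20 and 15, against 9286 and 4097 at Mir29a and Mir29c. The metabolic miRNA miR-103, encoded in introns of the pantothenate kinase genes Pank3 and Pank2, had 13 and 14 reads at Mir103-1 and 119 and 74 at Mir103-2. Mir365-1 had 19 and 19 reads and Mir365-2 had 98 and 77. Mir219a-1 had 43 and 9 reads while Mir219a-2 had 15 and 22, so these copies also exchanged places, at few reads.

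Taking families with at least 100 reads over their copies in each library, 19 families entered a comparison of copies. The copy with more reads over both libraries held a median of 81.6% of its family's reads in replicate 1 and 70.1% in replicate 2, with ranges of 50.5% to 99.0% and 35.7% to 100%. It held more than 80% in both libraries in 7 families. The same copy led in both libraries in 18 of the 19 families, although in miR-450 the lead, at 50.5% and 50.6%, was within counting error. The exception was miR-26a, where Mir26a-2 went from 91.7% of the family (95% Wilson interval 88.3% to 94.2%) to 35.7% (30.8% to 41.0%) between replicates 1 and 2. These shares cover only the reads that can be told apart and do not give the share of the shared guide that each copy made.

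**Figure D2:**
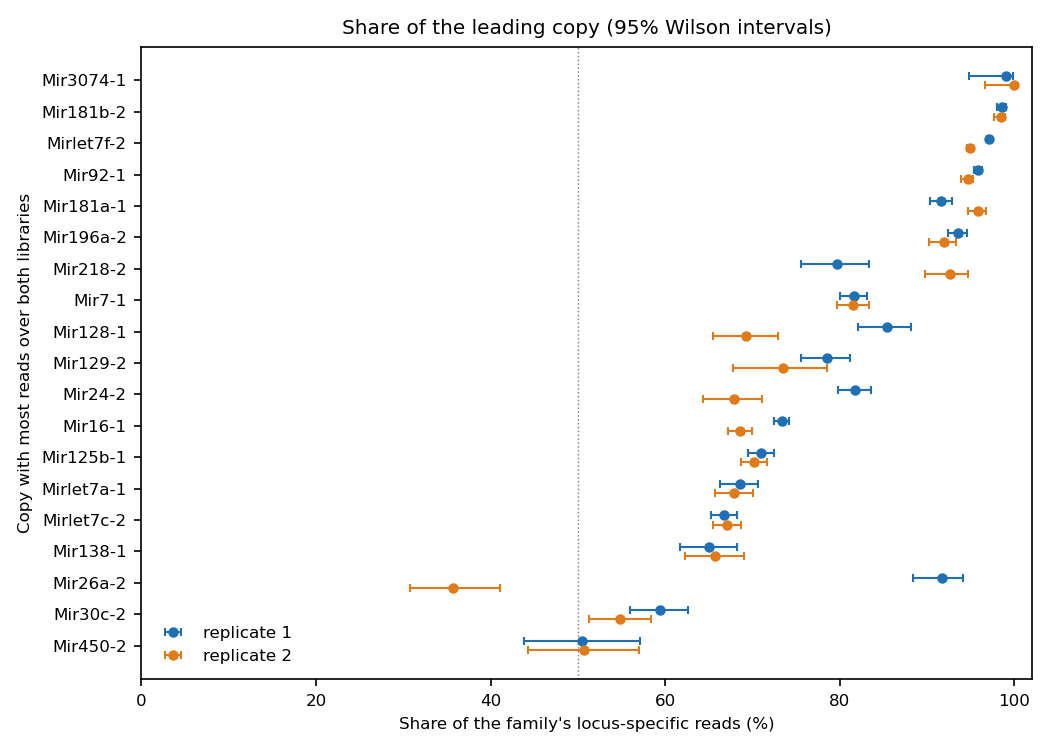
Share of a family's locus-specific reads (%) held by the copy with most reads over both libraries, for the 19 families with at least 100 reads in each library; points are libraries, bars 95% Wilson intervals and the dotted line equal shares of 2 copies. Mir3074-1, Mir181b-2, Mirlet7f-2 and Mir92-1 stay above 94% in both libraries, Mir450-2 lies near 50%, and the 2 points of Mir26a-2 are the farthest apart.

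The split was closely alike between the libraries in several families. Mir7-1 held 81.6% of the miR-7 reads in replicate 1 and 81.6% in replicate 2, and Mir181b-2 held 98.6% and 98.4%. Mirlet7c-2 held 66.8% and 67.1%, and Mir125b-1 held 71.0% and 70.1%. In 11 families the Wilson intervals of the libraries overlapped. They were apart in 8: let-7f, miR-16, miR-92, miR-181a, miR-24, miR-128, miR-218 and miR-26a. After miR-26a the widest of these gaps were in miR-128, where Mir128-1 held 85.4% and then 69.3%, in miR-24, where Mir24-2 held 81.8% and then 67.8%, and in miR-218, where Mir218-2 held 79.7% and then 92.6%.

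Each detected gene was then compared between the 2 libraries by setting its reads in an exact binomial test (two-sided) against library sizes scaled by TMM (a trimmed mean that sets the libraries to a common level), with Benjamini-Hochberg adjustment over all 377 detected genes. This test takes counting error as the only error and speaks of these libraries alone. In whole tissue, fewer cells of a type and less RNA per cell cannot be told apart. Over all detected genes 257 were called (68.2%), of which 123 had more in replicate 1 (32.6%) and 134 in replicate 2 (35.5%). Of the 47 detected numbered loci 25 were called (53.2%), 16 towards replicate 1 (34.0%) and 9 towards replicate 2 (19.1%). When total miRNA reads set the scale, each log2 ratio fell by 0.13 and 26 loci were called, 20 towards replicate 1 and 6 towards replicate 2. Over all 377 genes that scale gave 256 calls (67.9%), 144 towards replicate 1 (38.2%) and 112 towards replicate 2 (29.7%).

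With the libraries' own spread taken as error, the count was 0. edgeR's exact test used 1 dispersion for all genes, estimated from this same pair (biological coefficient of variation 0.433). It called 7 of the 377 genes (1.86%) and 0 of the 47 numbered loci. At an unadjusted p under 0.05 this test left 24 genes and 1 numbered locus, Mir26a-1. The median log2 ratio of replicate 2 over replicate 1 was -0.03 for the numbered loci and 0.04 for all detected genes, and the median size of the ratio, in either direction, was 0.35 and 0.45.

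**Figure D3:**
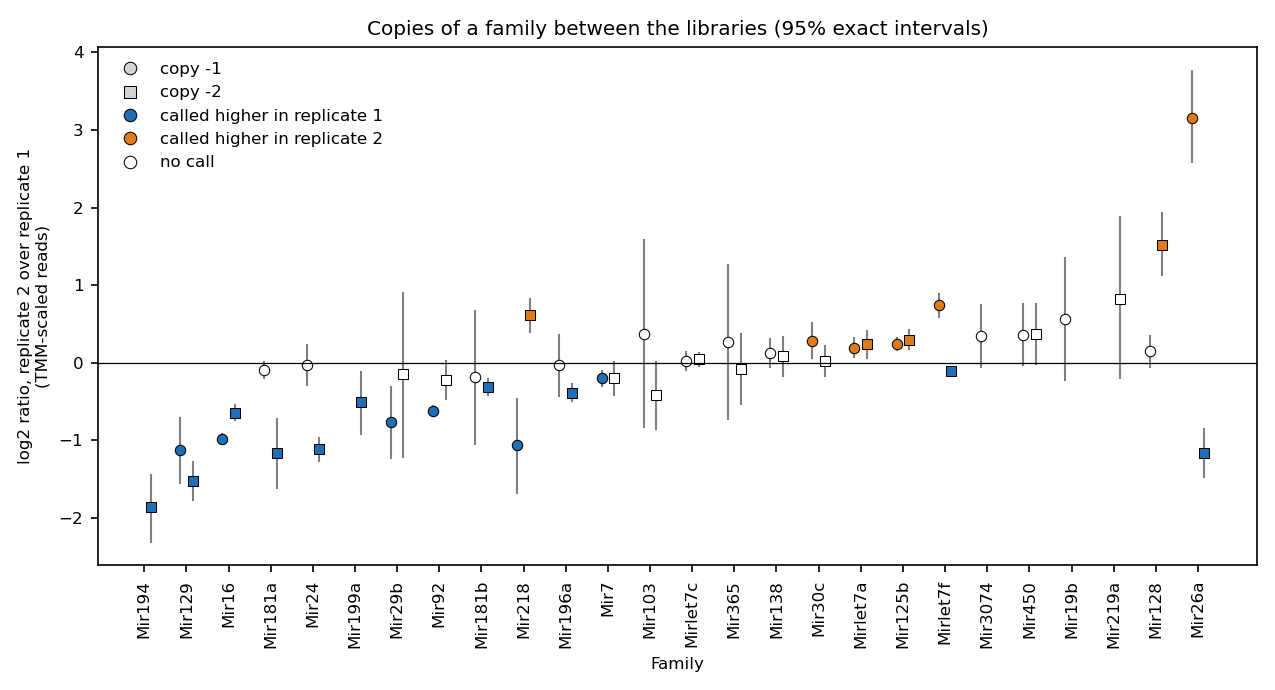
log2 ratio of replicate 2 over replicate 1 (TMM-scaled reads) for the 47 detected numbered loci, by family; circles are copy -1, squares copy -2, bars 95% exact intervals, and fills show the call of the exact binomial test. Mir26a-1 is the highest point at 3.15 with Mir26a-2 at -1.16, and Mir194-2 is the lowest at -1.86.

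Among called loci, those with the largest ratios towards replicate 1 were Mir194-2 (3.64-fold), Mir129-2 (2.87-fold), Mir181a-2 (2.24-fold), Mir26a-2 (2.23-fold) and Mir129-1 (2.18-fold). Towards replicate 2 they were Mir26a-1 (8.90-fold), Mir128-2 (2.88-fold), Mirlet7f-1 (1.67-fold), Mir218-2 (1.53-fold) and Mir125b-2 (1.23-fold). Differences of at least 2-fold were called at 9 of the 47 loci, 7 towards replicate 1 and 2 towards replicate 2. Over all 377 genes they were called at 69 (18.3%), 45 towards replicate 1 (11.9%) and 24 towards replicate 2 (6.37%). Mir194-2, which makes a miRNA of gut and kidney epithelium, lies 116 bases from Mir192 of the kidney list, and Mir192 had 897 reads in replicate 1 and 119 in replicate 2. Mir204, the other gene of the kidney list, fell by less, with 714 and 476 reads. The epithelial list was also lower in replicate 2, and its part in the value of Mir194-2 was not tested.

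Both copies were detected in 21 families, which allowed them to be set side by side. The log2 ratios of the copies differed by a median of 0.35, and in 6 families by less than 0.1: miR-7, miR-450, let-7c, let-7a, miR-138 and miR-125b. In 4 families both copies were called in the same direction (miR-16 and miR-129 towards replicate 1, let-7a and miR-125b towards replicate 2), at TMM scaling. With total miRNA reads or DESeq2 size factors as the scale there were 6, without let-7a and with miR-181a, miR-7 and miR-92 towards replicate 1. At TMM scaling neither copy was called in 5 families, and in 9 only 1 was, which by itself does not show that the copies differ. The exact intervals of the copies' ratios were apart in the 8 families named for their shares, which rest on the same reads.

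Copies were called in opposite directions in 3 families. Mir26a-1 was higher in replicate 2, at a log2 ratio of 3.15 (exact interval 2.59 to 3.77, adjusted p = 1.64e-43 in the exact binomial test). Mir26a-2 was lower, at -1.16 (-1.47 to -0.85, adjusted p = 1.44e-14, same exact test). edgeR's exact test with the spread between the libraries gave Mir26a-1 an adjusted p of 0.0798 and Mir26a-2 one of 1. Mir218-1 had a log2 ratio of -1.05 (-1.67 to -0.46) and Mir218-2 one of 0.61 (0.40 to 0.82). For let-7f the ratios were 0.74 (0.59 to 0.89) at Mirlet7f-1 and -0.10 (-0.13 to -0.07) at Mirlet7f-2, a small difference that the depth of Mirlet7f-2 made measurable. All 6 calls also held when total miRNA reads or DESeq2 size factors set the scale, and none held in edgeR's test.

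In locus-specific reads, neighbouring miRNA genes of a cluster, which can share a primary transcript, did not always move by the same amount. Reads within an arm that copies share are missing from the numbered loci, so such gaps do not show that expression differed. Mir24-2 had a log2 ratio of -1.12, whereas Mir23a, 223 bases away, had 0.71 and Mir27a had -0.15. Mir24-1 had -0.03, with 0.56 at Mir23b and -0.42 at Mir27b. Mir16-1 had -0.98 and Mir15a had -2.37, and Mir16-2 had -0.64 and Mir15b -1.39, so that all were lower in replicate 2. Mir199a-2 had -0.51 and Mir214, 5445 bases away in the same direction, had -2.62. At the tandem Mir450 pair the ratios were 0.36 and 0.37, and at Mir450b, beside them, the ratio was 0.48. In all, 43 numbered loci, 26 of them detected, had another miRNA gene within 10 kb on the same strand, and 61 lay inside a longer gene on the same strand.

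Loci were then grouped by whether a mature arm was their own, meaning that no other annotated hairpin holds it. The RefSeq table holds a mature arm for 88 of the 97 loci, and each arm was looked for in all 2202 GENCODE hairpins. In 51 loci 1 arm was own and the other shared. Of these 40 were detected (78.4%), with a median of 162 reads in replicate 1 and 119 in replicate 2. In 17 loci both listed arms occurred in another hairpin, and 3 were detected (17.6%): Mirlet7a-1, Mirlet7c-2 and Mir199a-2. Medians were 0 reads in both libraries. Of 18 loci with a single listed arm that was shared 3 were detected, of 2 with a single listed arm that was own 1 was, and of 9 with no listed arm 0 were. Among the 47 detected loci, 41 had a listed arm of their own and 6 had none listed. These 6 were the 3 named and Mir129-1, Mir219a-2 and Mir3074-1, for which only 1 arm is listed. Searching hairpins leaves out further copies elsewhere in the genome, and the class of a locus depends on which arms the table lists.

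**Figure D4:**
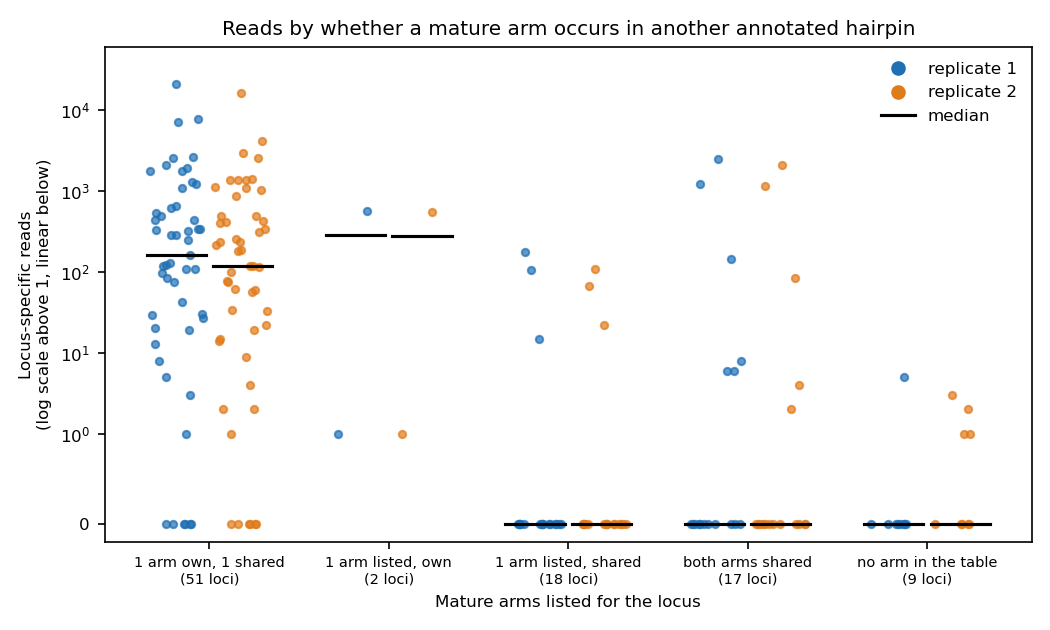
Locus-specific reads (log scale above 1, linear below) of the 97 numbered loci by the mature arms listed for them; points are loci, blue replicate 1 and orange replicate 2, and black bars are medians. The 51 loci with 1 own and 1 shared arm have medians of 162 and 119 reads, and the 17 loci with both arms shared have medians of 0.

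Own arms differed by little in some families and by much in others. In the 22 families in which both copies have an own arm on the same side, aligned arms differed at 1 to 9 positions, gaps included, with a median of 5. Their seed was the same in 7 families and another one in 15. The 5p arms of Mir103-1 and Mir103-2 differed at 1 position, outside the seed, and the 3p arms of Mir181b-1 and Mir181b-2 at 2. The 3p arms of Mir196a-1 and Mir196a-2 differed at 9 and those of Mir26a-1 and Mir26a-2 at 6. Reads of a hairpin gene are not divided by arm in these tables, so no value tells which arm the reads of a locus came from.

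16 families, with 33 loci, had 0 reads at every numbered copy in both libraries: Mir1906, Mir3084, Mir344, Mir344d, Mir344h, Mir3471, Mir465b, Mir465c, Mir5615, Mir680, Mir683, Mir684, Mir692, Mir7094, Mir7676 and Mir8099. Their hairpins were more alike than those of detected families. Over 20 pairs of copies in families at 0 the median identity was 95.8% (45.0% to 100%), and 11 pairs were over 95% identical. These include Mir5615 at 95.1%, whose loci overlap on opposite strands of chromosome 10 and so are not separate places. Over 26 pairs in families with a detected copy the median was 69.0% (54.5% to 83.9%), and 0 pairs were over 95%. 8 pairs, all in families at 0, were identical from end to end: Mir1906, Mir344h, Mir465b, Mir465c, Mir683, Mir7676, Mir8099 and, between its copies 2 and 3, Mir692. For these pairs no read inside the hairpin can be placed at a single copy, so a value of 0 says nothing of their expression. For copies that differ, such as those of Mir680 at 45.0% identity for the least alike pair, 0 reads allow up to 0.605 and 0.666 CPM of locus-specific reads. That limit does not cover the mature miRNA. The arm listed for Mir680 occurs in 86 annotated hairpins, that of Mir3471-1 in 52 and that of Mir692 in 9. Reads lying within such an arm could be placed at no copy.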

How the data were processed

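The authors deposited whole-number read counts per miRNA gene for both libraries, without normalization, in 3 columns. Per the file headers the build was mm10 and the annotation GENCODE M21. Aligner and counter: not given in the sources used here. From the values, column 3 holds the annotated strand (used here), column 2 either strand and column 4 the opposite strand. Rows that name no gene stayed out of library sizes: unmapped reads were 25.8% and 26.1% of all reads, multimapping reads 25.9% and 27.8%, and reads in no annotated miRNA gene 5.96% and 6.24%. A CAST/EiJ allele that differs from the reference can lower a count.

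CPM used reads assigned to miRNA genes. Genes with at least 10 reads in both libraries were compared by an exact binomial test (R 4.3.3) with TMM factors from edgeR 4.0.16, Benjamini-Hochberg adjusted and called at 0.05. With 1 library on each side edgeR's quasi-likelihood test could not be fitted, so its exact test at the common dispersion and DESeq2 1.42.0 size factors were alternatives. Hairpins were aligned in Biopython 1.88 and sequences came from RefSeq and GENCODE M21 tables. Loci of families with 100 reads in both libraries at a copy were named, and of called loci the 5 largest ratios in each direction. The members and lists were chosen with earlier results of these data known.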

Additional observations from a re-analysis of the deposited data

How the results depend on the processing

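The share of miRNA reads at numbered loci, 1.13%, became 0.631% when all mapped reads were the denominator, and 0.746% without Mirlet7f-2, an alternative chosen after seeing the data. It ran from 0.992% to 1.27% when 1 library was left out. Detected loci numbered 41 to 48 under the other read minimums, the either-strand column and with 1 library left out, and the median share of the leading copy was 70.1% to 81.6%. In the either-strand column Mir24-1, Mir24-2, Mir129-2, Mir3074-1, Mir219a-2 and Mirlet7f-1, which overlap an annotated miRNA gene on the other strand, had 0 reads, and Mirlet7f-2 then held 100% of its family. Calls between the libraries fell from 257 to 7 genes and from 25 to 0 numbered loci with edgeR's exact test, and were 237 to 266 genes and 22 to 27 loci under the others. With total miRNA reads as the scale, 5 uncalled loci changed sign, with log2 ratios of -0.0025 for Mir138-1, -0.0477 for Mir138-2, -0.11 for Mir30c-2, -0.11 for Mirlet7c-1 and -0.0877 for Mirlet7c-2. With DESeq2 size factors 3 did, at -0.0372 for Mir30c-2, -0.0371 for Mirlet7c-1 and -0.0160 for Mirlet7c-2. Under total reads Mirlet7a-1, Mirlet7a-2 and Mir30c-1 were no longer called, and Mir103-2, Mir181a-1, Mir7-2 and Mir92-2 were called in addition. Counts near 10 reads, as at Mir103-1, leave intervals wider than 2 log2 units.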
